A study of Mus musculus with 32 samples.

Results

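The 47 loci described here are the mouse tRNA genes for aspartate, asparagine, histidine and tyrosine, taken by name from the deposited tables of 401 tRNA loci (11.7% of them). They comprise 14 loci named tRNA-Asp-GTC, 13 named tRNA-Asn-GTT, 10 named tRNA-His-GTG and 10 named tRNA-Tyr-GTA. The Asp loci 1-5 and 1-7 were left out. Chromatin accessibility was measured by ATAC-seq, a method that inserts sequencing adapters into accessible DNA with a transposase, in nuclei of whole brain or liver tissue from male C57BL/6N mice that were 10 weeks old. Wild-type mice were set beside mice homozygous for a CRISPR-Cas9 deletion of tRNA-Phe-GAA-1-1 (Phe11), 2-1 (Phe21) or 3-1 (Phe31), genes for the phenylalanine tRNA, which is none of the 4 tRNAs described here. There were 5 wild-type, 4 Phe11, 3 Phe21 and 3 Phe31 brain libraries, and 7 wild-type, 4 Phe11, 3 Phe21 and 3 Phe31 liver libraries. The tissue was not sorted, so fewer cells of a type and less signal per cell cannot be told apart.

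These 4 tRNAs share a G in the wobble position of the anticodon, and that G is exchanged for queuosine, a base whose precursor queuine mice take up from food and gut microbes. The exchange is made by tRNA-guanine transglycosylase, and the queuosine of tRNA-Asp and tRNA-Tyr is further decorated with mannose and galactose. tRNA genes are short, are transcribed by RNA polymerase III from promoters inside the gene, and exist as many copies, so open chromatin at a copy is used as a sign of which copies are available for transcription. In the locus names the first number marks the sequence of the mature tRNA (the isodecoder) and the second the gene copy, so His-GTG-2-4 and His-GTG-2-8 are separate copies that encode the same RNA. Reads were counted over each gene with its flanks. The authors kept only primary alignments and removed low-quality ones. Reads that fit several identical copies equally well could be lost in this way, so a level of a single copy is uncertain to that extent.

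The 15 brain libraries held 20315 to 35565 reads over all tRNA loci and the 17 liver libraries 4719 to 23754, so liver values are less precise. The deleted gene was checked first. In Phe11 brain, tRNA-Phe-GAA-1-1 and its flanks kept 32 to 54 reads against 79 to 113 in wild type, and in Phe11 liver 3 to 6 against 13 to 26. In Phe21 libraries tRNA-Phe-GAA-2-1 had 0 to 2 reads, but wild-type libraries held only 1 to 12, and in Phe31 brain tRNA-Phe-GAA-3-1 had 1 to 3 against 35 to 51. The liver libraries labelled Phe31 went against their label, since they held 7 to 8 reads at tRNA-Phe-GAA-3-1 (14 to 20 in their deeper wild-type libraries) and 0 to 2 at tRNA-Phe-GAA-1-1 (8 to 13). They are called the libraries labelled Phe31 throughout, and no direction from them is a result of losing 3-1. Wild-type liver replicates 1 and 22 differed by less than the sampling noise (chi-square 0.44 per degree of freedom) and were counted as 1 sample in means and in n. The tests kept both libraries, replicate 1 in batch 1 and replicate 22 in batch 2. Liver results within batch 1 and within batch 2 are therefore not independent. Merging the libraries also meant leaving out the batch term. Then 21 loci passed between the tissues (20 shared with the 21 given below), with 183 over all loci. In Phe11 liver 5 passed (4 shared), with 22 over all loci. Peaks covered the promoters of 5 of 6 brain marker genes (not Gfap) and of 0 of 5 liver marker genes in all 3 brain lists, and of 5 of 5 liver markers and 1 to 2 of 6 brain markers in the liver lists.

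Levels are given as reads per 10000 reads over all tRNA loci. In wild-type brain the 10 Tyr loci together held 786.1, the His loci 466.8, the Asn loci 311.0 and the Asp loci 262.9. In wild-type liver of batches 1 and 2 the order was the same, with 898.2 for Tyr, 485.4 for His, 393.9 for Asn and 193.9 for Asp. The 47 loci thus held 18% to 18.8% of the reads in the 5 wild-type brains and 19.0% to 20.2% in those 4 wild-type livers. The Tyr copies include the most open tRNA loci of all. Tyr-GTA-3-1 ranked first of the 401 loci in brain, at 195 ± 3.87 (SD, n = 5), and Tyr-GTA-2-1 second, at 189 ± 9.33. Tyr-GTA-4-1 ranked first in liver, at 230.0 ± 2.72 (SD, n = 3), and Tyr-GTA-2-1 again second, at 191 ± 7.07. These neighbours in the brain order, 3-1 and 2-1, did not differ beyond their spread, since the 5 brains ran from 189 to 199 at 3-1 and from 173 to 197 at 2-1.

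**Figure D1:**
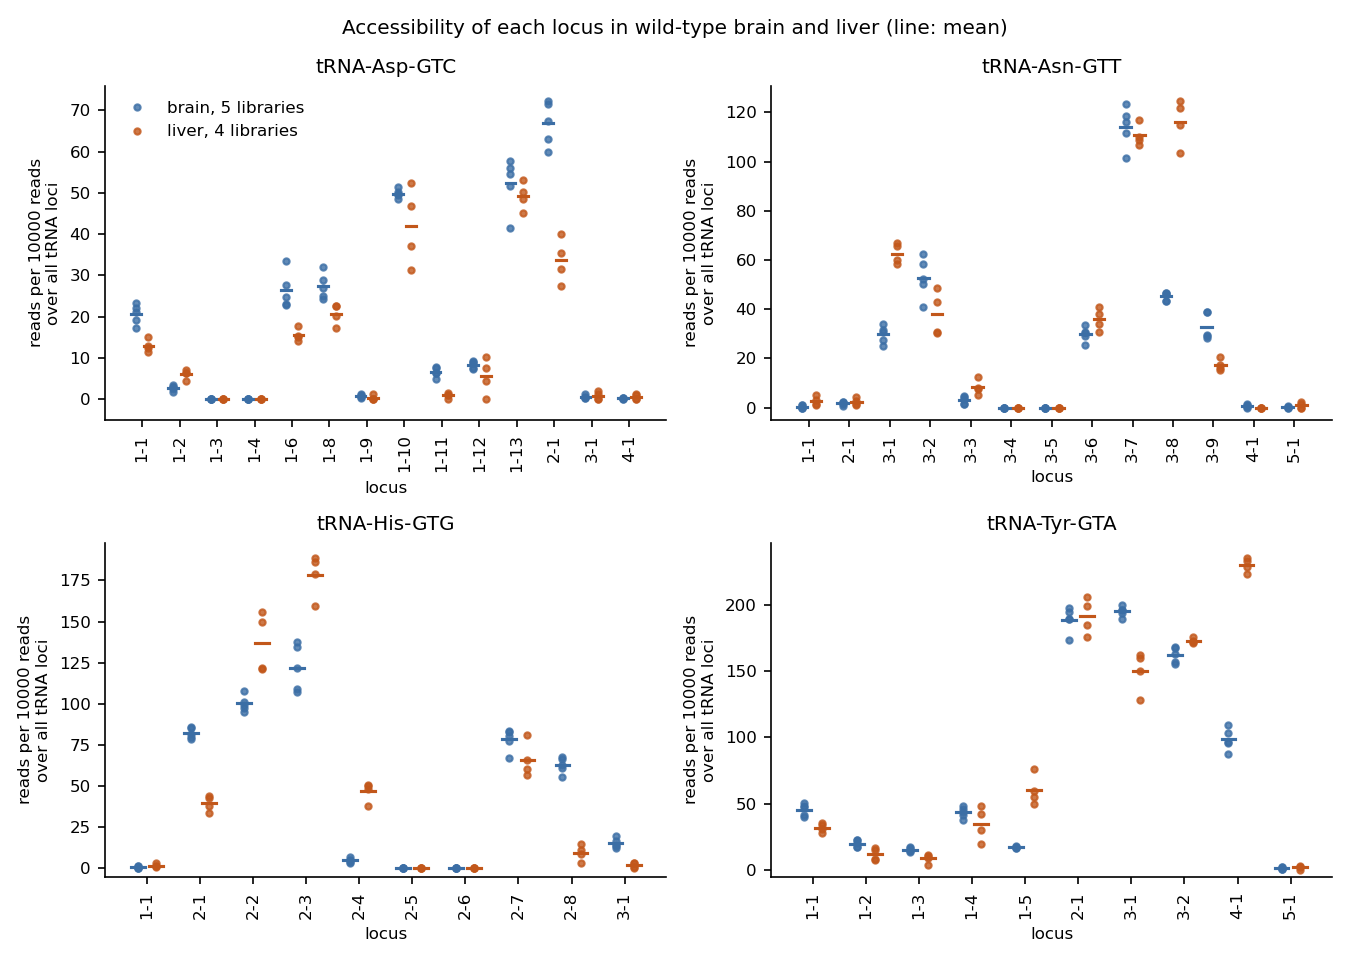
Each point is 1 wild-type library, and the y axis gives reads per 10000 reads over all tRNA loci for each locus of the 4 families (x axis, named by isodecoder and copy), in brain (blue, 5 libraries) and in liver of batches 1 and 2 (orange, 4 libraries), with lines at the means of the libraries. Most of each family's reads lay on 5 or 6 loci, and His-GTG-2-4, His-GTG-2-8, Tyr-GTA-4-1 and Asn-GTT-3-8 were separated by tissue.

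A few copies carried most of each family. It took 6 Asp, 6 Asn, 5 His and 6 Tyr loci to reach 90% of the family's reads in brain, and 6, 5, 5 and 6 in liver. At the other end, 6 loci had no read in any of the 32 libraries: Asn-GTT-3-4 and 3-5, Asp-GTC-1-3 and 1-4, and His-GTG-2-5 and 2-6. That is 12.8% of these loci against 4.74% of all 401. All 6 are copies of the isodecoder with the most copies in their family. Whether reads there were removed because they fit other identical copies equally well was not tested, so 0 reads need not mean closed chromatin. Counting them, 15 loci had a wild-type mean under 5 reads per 10000 in both brain and liver (batches 1 and 2), which is 31.9%, the same share as over all loci, although single libraries went above 5 at some of them. The rest of these low loci were Asn-GTT-1-1, 2-1, 4-1 and 5-1, Asp-GTC-1-9, 3-1 and 4-1, His-GTG-1-1 and Tyr-GTA-5-1, nearly all the only copy of their isodecoder. The signal therefore lay on few mature sequences. Of the Asn family, the 9 copies of isodecoder 3 held 308 ± 7.22 in brain (SD, n = 5), and the other Asn isodecoders between 0.256 and 1.75 each.

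The first comparison asked which copies are open in wild-type brain and which in liver. It used the wild-type livers of batches 1 and 2, and the livers of batch 3, given further on, differed from them at several of these loci. The answer differed from copy to copy within each family, and the locus with the highest mean changed in 3 of the 4 families. In the Asn family it was Asn-GTT-3-7 in brain (114 ± 8.29, n = 5) and Asn-GTT-3-8 in liver (117 ± 4.15, n = 3), although in liver 3-7 stood close behind at 111 ± 4.90. In the Asp family it was Asp-GTC-2-1 in brain (66.9 ± 5.37) and Asp-GTC-1-13 in liver (50.1 ± 3.17), where Asp-GTC-1-10 lay within the spread at 44.5 ± 9.31. In the Tyr family Tyr-GTA-3-1 gave way to Tyr-GTA-4-1. His-GTG-2-3 was the highest His locus in both tissues, at 122 ± 13.9 in brain and 174.97 ± 14.4 in liver. By limma with trend on log2(reads per 10000 + 1), with batch as a term, 21 of the 29 loci deep enough to test passed an adjusted p of 0.05, 7 higher and 14 lower in liver. Of all 247 loci tested, 71.3% passed, 27.5% higher and 43.7% lower, a share near that of these families. The groups did not overlap at 20 of the 29, against 60.7% of all loci. The median log2 difference (liver minus brain) was -0.36 for these loci and -0.23 for all tested loci. Levels are shares of a library's tRNA reads, so differences are relative to that median. By edgeR on the recovered reads the split was 10 higher and 12 lower (82 and 92 over all loci), with a median of -0.07 over all loci. His-GTG-2-8, His-GTG-3-1 and Tyr-GTA-1-3, 3 of the 14 lower loci, had few reads in liver (at most 14 a library) and entered the test through the brain, where they were high.

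**Figure D2:**
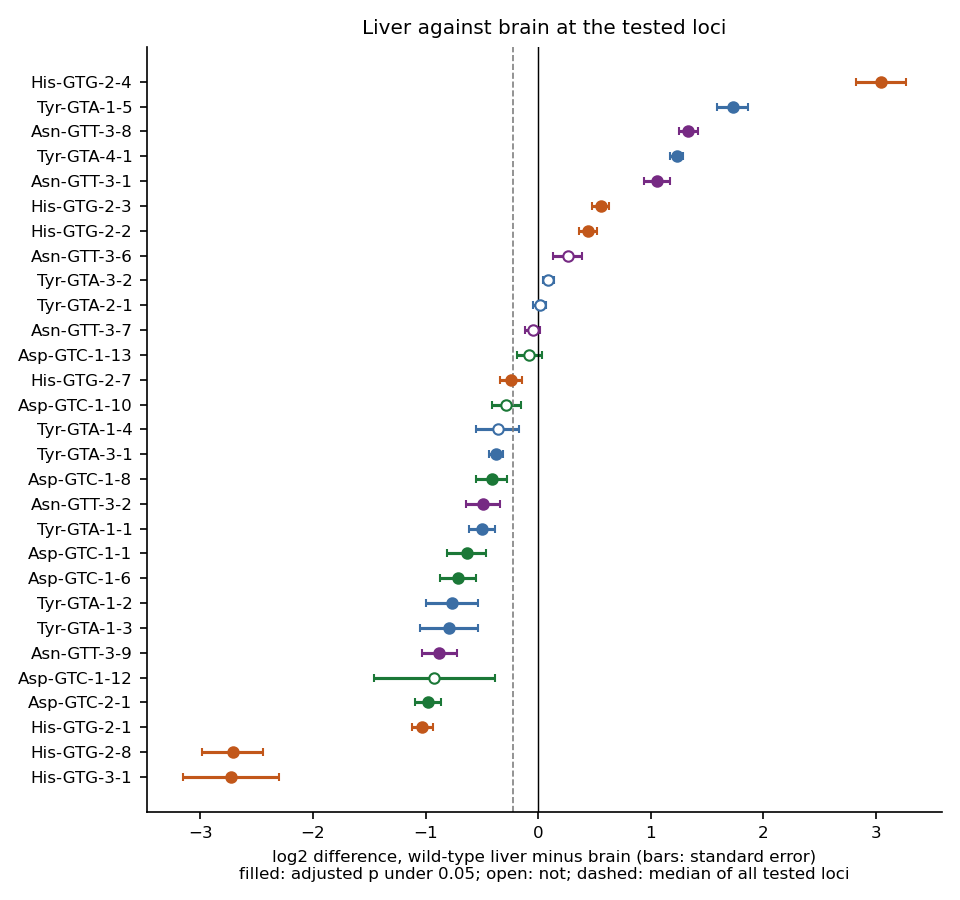
The x axis gives the log2 difference of wild-type liver minus brain, with its standard error as bars, for each of the 29 loci tested (y axis), coloured by family (green Asp, purple Asn, orange His, blue Tyr) and filled where the adjusted p was under 0.05. The dashed line is the median of all tested loci (-0.23), and His loci sit at both ends, from -2.73 to 3.05.

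The His family held the widest spread. His-GTG-2-4 had 3.35, 7.12, 5.42, 3.70 and 4.92 reads per 10000 in wild-type brains 1, 2, 3, 16 and 18, and 37.7, 50.7, 48.5 and 50.3 in livers 1, 3, 22 and 24. Every liver stood above every brain, with a log2 difference of 3.05 ± 0.22 (SE, adjusted p = 8.4e-09). His-GTG-2-8, another copy of the same isodecoder, did the reverse. It had 55.8, 66.3, 63.0, 60.8 and 67.6 in the brains and 15.1, 8.87, 11.3 and 3.08 in the livers, again without overlap, and its log2 difference was -2.72, given without a test because of its few liver reads. His-GTG-2-1 fell from 82.2 ± 3.22 in brain to 40.2 ± 3.41 in liver (log2 difference -1.03 ± 0.09, adjusted p = 1.22e-07). His-GTG-3-1, the only copy of its isodecoder, had 12.3 to 19.9 in brain and 0 to 3.23 in liver, where at most 3 reads a library were counted (log2 difference -2.73, likewise without a test). Despite these opposite moves, the 8 copies of isodecoder 2 together held 451 ± 15.9 in brain and 482 ± 27 in liver.

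His-GTG-2-2 and His-GTG-2-3 were higher in liver too, by 0.44 and 0.56 on the log2 scale (adjusted p = 0.00017 and 9.83e-06), and the remaining loci higher in liver came from the Asn and Tyr families. Asn-GTT-3-8 had 43.4 to 46.8 reads per 10000 in the 5 brains and 103, 122, 124 and 115 in the 4 livers, which did not overlap (log2 difference 1.34 ± 0.08, adjusted p = 1.78e-09). Tyr-GTA-4-1 had 87.8 to 109 in brain and 223 to 235 in liver (log2 difference 1.23 ± 0.06, adjusted p = 4.6e-11). Tyr-GTA-1-5 rose from 17.1 ± 0.74 to 62.6 ± 12.2 (log2 difference 1.73 ± 0.13, adjusted p = 1.73e-08) while its sister copies Tyr-GTA-1-1, 1-2 and 1-3 were lower in liver by 0.50 to 0.79 on the log2 scale. The 5 copies of Tyr isodecoder 1 summed to 141 ± 8.54 in brain and 155 ± 24 in liver. Asn-GTT-3-1 followed Asn-GTT-3-8, at 29.7 ± 3.55 in brain and 62.6 ± 4.24 in liver (log2 difference 1.06 ± 0.12, adjusted p = 9.38e-07).

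Among the loci lower in liver, Asp-GTC-2-1 went from 66.9 ± 5.37 to 34.4 ± 4.88 (log2 difference -0.98 ± 0.12, adjusted p = 2.51e-06, with 59.7 ± 6.99 in the livers of batch 3) and Asn-GTT-3-9 from 32.9 ± 5.50 to 17.5 ± 2.75 (log2 difference -0.88 ± 0.15, adjusted p = 0.00013). Of the 7 Asp loci tested, 4 were lower in liver and 0 higher, where 43.7% of all tested loci were lower. Asp-GTC-1-8 did not pass by edgeR, with the replicate number as a block or in either batch alone. Asp-GTC-1-1 failed with that block and in batch 1 alone, and Asp-GTC-1-6 in batch 2 alone. Tyr-GTA-3-1, the brain's most open locus, was lower in liver by 0.38 on the log2 scale (SE 0.06, adjusted p = 6.01e-05), with all 4 livers (128 to 162) under all 5 brains, but not the livers of batch 3 (163 to 201). Some of the strongest loci did not pass. Tyr-GTA-2-1 differed by 0.01 ± 0.06 (adjusted p = 0.819), Tyr-GTA-3-2 by 0.09 (adjusted p = 0.0959) and Asn-GTT-3-7 by -0.05 (adjusted p = 0.518). Within batch 1 alone and within batch 2 alone, all 21 called loci kept the sign of their difference, and 16 passed in each. The 21 include His-GTG-2-8, His-GTG-3-1 and Tyr-GTA-1-3, which entered the test through the brain, and the 16 include these His loci. Wild-type livers 1 and 22, counted as 1 sample, lie in different batches, so the batches are not independent.

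The wild-type livers differed between batches, and an effect of the batch cannot be told apart from a difference between the mice. The 3 wild-type livers of batch 3, the batch of the libraries labelled Phe31, stood apart from the other 4 at 12 of the 23 loci deep enough to compare, 7 higher and 5 lower without overlap, as did 38.3% of all 193 such tRNA loci. Asn-GTT-3-8 was at 65.1 ± 10.0 in batch 3 and 117 ± 4.15 in batches 1 and 2, and His-GTG-2-4 at 23.8 ± 6.60 and 48.0 ± 4.27. His-GTG-2-1 was at 81.6 ± 5.00 in batch 3, as high as in brain, and 40.2 ± 3.41 in the others. In batch 3 the highest Asn locus was Asn-GTT-3-7, as in brain, at 138 ± 13, and Asp-GTC-1-13 (59.96 ± 5.43) and Asp-GTC-2-1 (59.7 ± 6.99) lay within each other's spread. Asp-GTC-1-6, too low in these libraries to be among the 23, was at 6.19 ± 0.31 in batch 3 and 15.5 ± 0.36 in the others. No brain library belongs to batch 3, so these livers entered no comparison of tissues, nor the Phe11 and Phe21 comparisons. At Asn-GTT-3-8 the log2 ratio of the batch 3 livers to the others was -0.83, larger than either knockout difference at this locus given below.

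**Figure D3:**
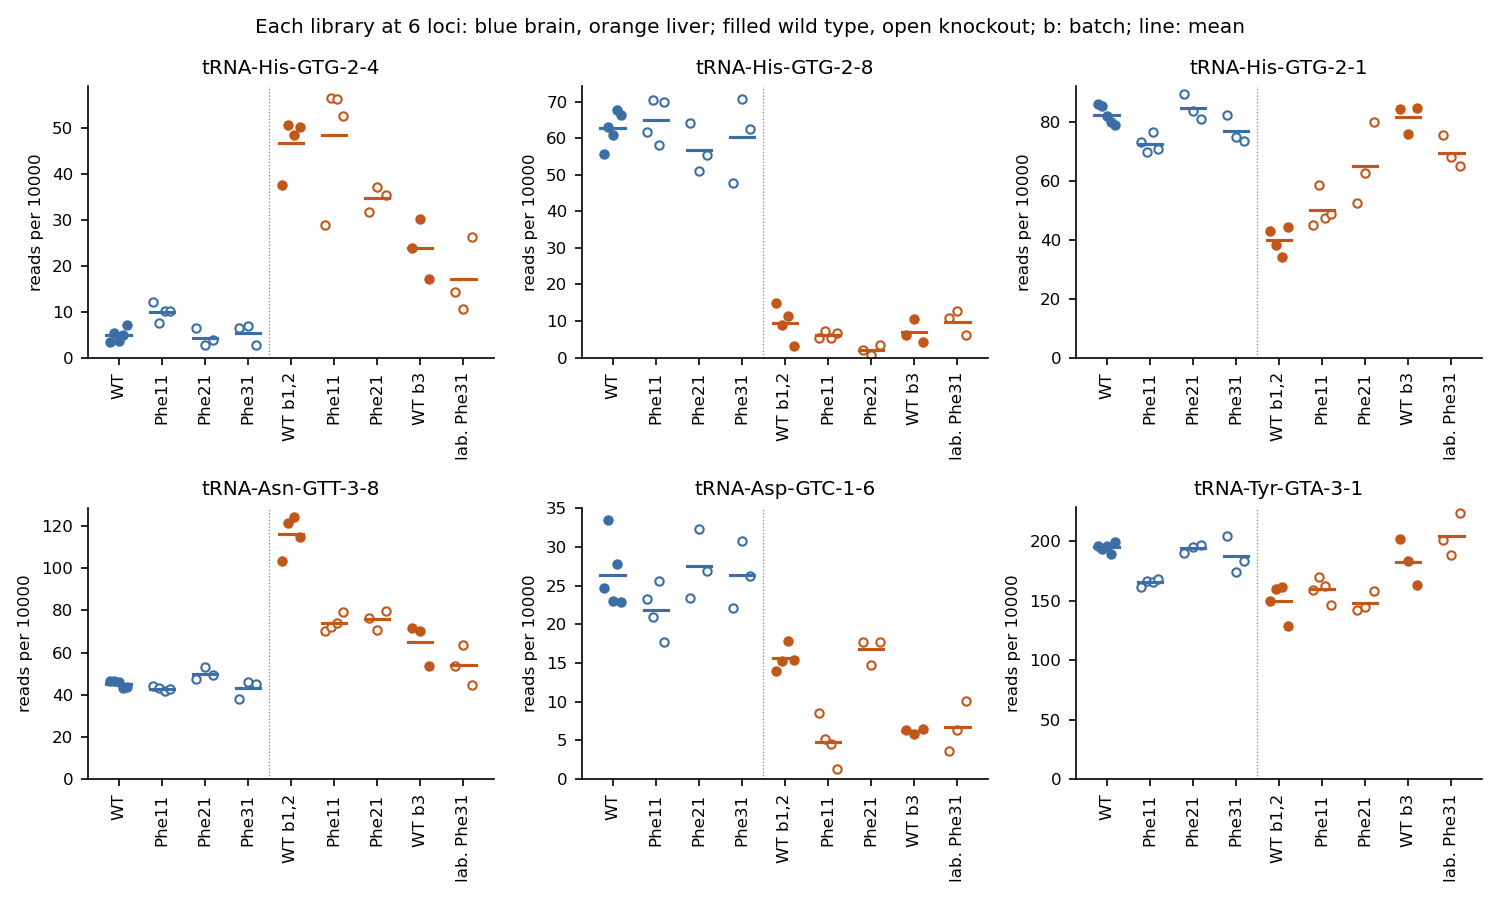
Each point is 1 library, and the y axis gives reads per 10000 reads over all tRNA loci at 6 loci, in brain (blue) and liver (orange), with wild type filled, knockouts open and a line at the mean of each group (x axis; b1,2 and b3 are batches, lab. Phe31 the libraries labelled Phe31). At Asn-GTT-3-8 the wild-type livers of batches 1 and 2 (103 to 124) lie above all other groups, batch 3 wild type included (53.6 to 71.8).

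The knockout comparisons asked whether the loss of 1 tRNA-Phe gene moves the accessibility of other tRNA genes. They used normalised counts (reads divided by the size factor of the library) within each table, log2(normalised count + 1) and limma with trend. The mean count had to reach 10, which left 31, 30 and 30 of the 47 loci in Phe11, Phe21 and Phe31 brain, and 26, 25 and 23 in the liver tables in the same order. The 3 brain comparisons share wild-type libraries 1 and 3, and the Phe11 and Phe21 liver comparisons share wild-type libraries 1, 3 and 24, so their values are set side by side without a test of likeness.

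In Phe11 brain the most open Tyr loci fell and several low His and Tyr loci rose. Of the 31 loci tested, 11 passed, 7 lower and 4 higher, against 28.1% of all 263 loci (13.3% lower, 14.8% higher). The groups did not overlap at 10 of the 31, against 27.8% of all. The median log2 difference was -0.01 for these loci and for all loci. Tyr-GTA-3-1 had 510, 502, 513 and 489 normalised counts in wild-type brains 1, 3, 16 and 18 and 404, 425, 418 and 424 in Phe11 brains 5, 6, 13 and 14. All 4 knockouts lay below all 4 wild types, with a log2 difference of -0.27 ± 0.03 (SE, adjusted p = 1.02e-06), and the fall was -0.29 in batch 1 and -0.25 in batch 2, passing in each. Tyr-GTA-2-1 had 505, 513, 495 and 490 in wild type and 427, 466, 425 and 414 in Phe11 (-0.21 ± 0.03, adjusted p = 3.25e-05). Tyr-GTA-3-2 was lower by 0.12 (adjusted p = 0.0228).

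His copies moved both ways in Phe11 brain. His-GTG-2-1 had 206 to 224 in wild type and 178 to 192 in Phe11, without overlap (-0.24 ± 0.06, adjusted p = 0.00431), with -0.30 in batch 1 and -0.18 in batch 2 and no pass in either or by DESeq2. His-GTG-2-4, one of the His copies higher in liver, had 8.73, 14.1, 9.67 and 12.7 normalised counts in wild type and 30.1, 19.4, 25.5 and 25.4 in Phe11. It was the largest rise among these loci, at 1.09 ± 0.25 on the log2 scale (adjusted p = 0.00128), with no overlap and 1.06 in batch 1 against 1.13 in batch 2, although it passed in batch 2 only. His-GTG-3-1 had 32.2 to 43.5 in wild type and 42.5 to 72.9 in Phe11 (0.57 ± 0.15, adjusted p = 0.00431), where replicate 6 overlapped wild type, and its change was 0.25 in batch 1 and 0.88 in batch 2. Tyr-GTA-1-3 had 34.7 to 45.1 in wild type and 52.6 to 59.4 in Phe11 (0.47 ± 0.13, adjusted p = 0.00544), 0.40 in batch 1 and 0.54 in batch 2, passing in batch 2 only. It did not pass by DESeq2. Tyr-GTA-1-5 had 42.5 to 47.3 and 54.5 to 62.2 (0.34 ± 0.12, adjusted p = 0.0374).

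The remaining falls in Phe11 brain were Asp-GTC-1-6 (-0.35 ± 0.13, adjusted p = 0.0399, the largest fall), Asp-GTC-1-10 (-0.23 ± 0.08, adjusted p = 0.039) and Asn-GTT-3-7 (-0.14 ± 0.05, adjusted p = 0.0383). None of these passed within either batch, and each failed to pass in 5 or 6 of the 8 fits that left out 1 library. Tyr-GTA-1-5 likewise failed in 5 and Tyr-GTA-3-2 in 4 of the 8, and both failed within each batch and by edgeR and DESeq2. The other 6 called loci passed in all 8. The count of called loci was 6 without Phe11 replicate 5 and 7 without wild-type replicate 18 (67 and 56 over all loci). Within batch 1 only Tyr-GTA-3-1 of the 11 passed, and within batch 2 there were 5, while all 11 kept their sign in both. The Phe11 brains were deeper (25774 to 35565 reads) than the wild types of that table (20315 to 24351). With all libraries thinned to equal totals, 7 of the 11 loci passed (53 over all loci), 4 higher and 3 lower (Tyr-GTA-2-1, Tyr-GTA-3-1 and His-GTG-2-1). With TMM scaling 8 passed (70 over all loci), 4 higher and 4 lower.

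**Figure D4:**
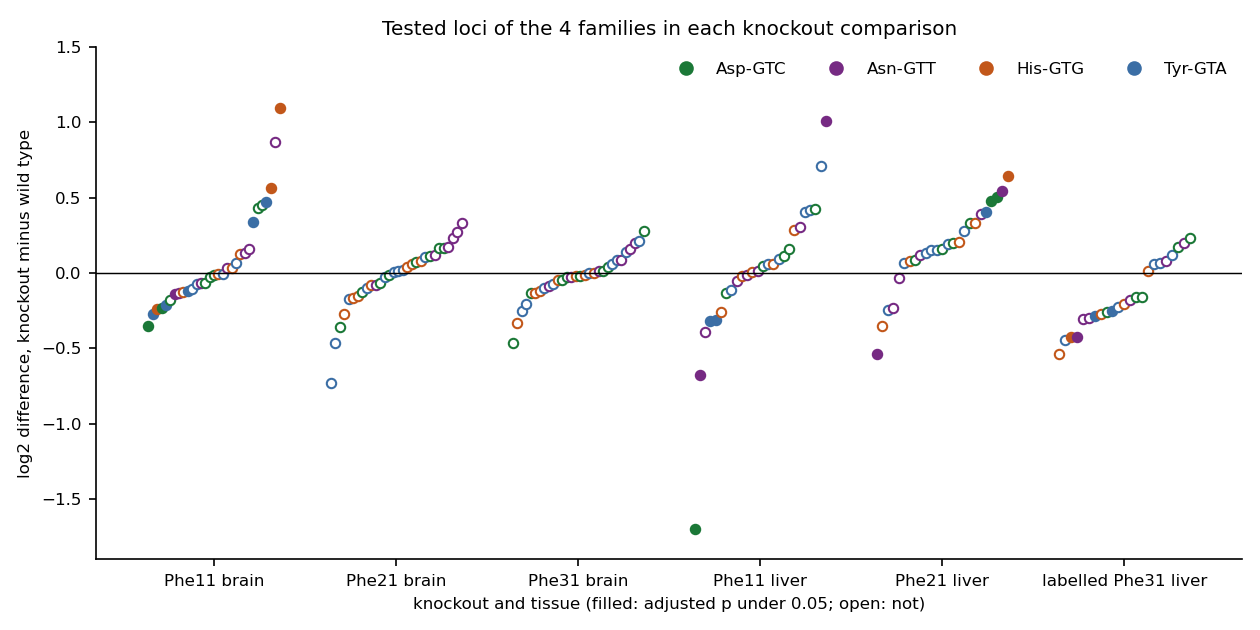
Each point is 1 tested locus, with the log2 difference of knockout minus wild type on the y axis and the 6 comparisons on the x axis, sorted by value within a comparison, coloured by family and filled where the adjusted p was under 0.05. Values span -0.35 to 1.09 in Phe11 brain and -1.70 to 1.01 in Phe11 liver, and 0 loci are filled in Phe21 and Phe31 brain.

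In Phe21 brain 0 of 30 loci passed, as did 0.00% of all 253 tested by limma, with 4 of these loci at an unadjusted p under 0.05. DESeq2 likewise called 0, whereas edgeR on the recovered reads called 2 of these loci, the ones with the largest positive and negative difference. These 2 were the only calls by edgeR over all 253 loci. Without Phe21 replicate 7 limma called 2 as well (9 over all 255 loci), and without wild-type replicate 2 it called 1 (1 over all 253). Asn-GTT-3-7 had 259, 316 and 288 in wild-type brains 1, 2 and 3 and 356, 364 and 363 in Phe21 brains 7, 8 and 9, higher in all 3 (log2 difference 0.33 ± 0.07, adjusted p = 0.0594). Tyr-GTA-1-2 had 52.4, 57.6 and 58.3 in wild type and 37.6, 29.9 and 32.9 in Phe21 (-0.73 ± 0.16, adjusted p = 0.0594). In Phe31 brain 0 of 30 passed by limma, edgeR or DESeq2, against 0.775% of all 258 by limma, and 1 had an unadjusted p under 0.05. The largest positive difference was at Asp-GTC-1-8 (0.28 ± 0.13, adjusted p = 0.723) and the largest negative one at Asp-GTC-1-11 (-0.47 ± 0.33, adjusted p = 0.931), a locus with 16.8 normalised counts in wild type.

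In Phe11 liver 5 of 26 loci passed, 4 lower and 1 higher, against 12.1% of all 207 (6.76% lower, 5.31% higher). For 2 of the 5, Asp-GTC-1-6 and Asn-GTT-3-3, the mean reached the filter of 10 only through the group where the locus was high, so they are given below as values without a test, and the other 3 were all lower. The steadiest was Asn-GTT-3-8, one of the Asn copies higher in wild-type liver than in brain. It had 105, 124, 124 and 115 normalised counts in wild-type livers 1, 3, 22 and 24 and 67.4, 72.8, 73.5 and 77.5 in Phe11 livers 4, 6, 20 and 21. The groups did not overlap, and the log2 difference was -0.67 ± 0.12 (adjusted p = 4.45e-06). It was -0.69 in batch 1 and -0.66 in batch 2, passing in each. Wild-type livers 1 and 22, counted as 1 sample, lie in different batches, so these fits are not independent. Asp-GTC-1-6 had 14.2, 15.5, 17.7 and 15.4 in wild type and 8.18, 5.20, 4.43 and 1.24 in Phe11 (log2 difference -1.70), from 3 to 15 reads a library. It had enough reads to enter only 4 of the 8 fits that left out 1 library, and its difference in batch 1 alone was -1.07.

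Both leading liver Tyr loci were lower in Phe11 liver, although neither passed by DESeq2 on the recovered reads. Tyr-GTA-4-1 had 239, 237, 222 and 228 in wild type and 152, 195, 213 and 187 in Phe11 (-0.32 ± 0.08, adjusted p = 0.00455), with -0.46 in batch 1, where it passed, and -0.17 in batch 2, where it did not. Tyr-GTA-2-1 had 178, 202, 204 and 185 in wild type and 140, 176, 143 and 161 in Phe11 (-0.32 ± 0.09, adjusted p = 0.00815), with -0.27 and -0.36 within the batches and no pass in either. Asn-GTT-3-3, a low copy, had 5.15 to 12.3 in wild type and 9.74 to 21.8 in Phe11, which overlapped (log2 difference 1.01, with 1.63 in batch 1 and 0.38 in batch 2). Without wild-type replicate 1 the count was 3 (19 over all loci), and Tyr-GTA-4-1 did not pass. With libraries thinned to equal totals only Asn-GTT-3-8 passed (10 over all loci), which also reflects fewer reads per locus.

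In Phe21 liver 6 of 25 loci passed, 5 higher and 1 lower, against 13.4% of all 201 (8.46% higher, 4.98% lower). The split depends on the scaling and the tool. These loci split into 8 higher and 1 lower with TMM, 4 and 3 by edgeR and 2 and 2 by DESeq2. Over all loci the calls were 28 higher and 9 lower with TMM, 11 and 23 by edgeR and 6 and 11 by DESeq2. Asn-GTT-3-8 was again lower, with 115, 134 and 128 in wild-type livers 1, 3 and 24 and 85.5, 79.3 and 94.2 in Phe21 livers 7, 8 and 9 (log2 difference -0.54 ± 0.12, adjusted p = 0.000452). Its neighbour in rank, Asn-GTT-3-7, was higher, with 122, 120 and 130 in wild type and 169, 199 and 178 in Phe21 (0.55 ± 0.11, adjusted p = 4.64e-05). His-GTG-2-1 had 47.7, 42.0 and 49.0 in wild type and 58.4, 69.9 and 94.2 in Phe21 (0.65 ± 0.15, adjusted p = 0.000676). These 3 loci did not overlap between groups.

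Tyr-GTA-3-2 in Phe21 liver had 191, 189 and 195 in wild type and 229, 251 and 284 in the knockout (0.40 ± 0.10, adjusted p = 0.0014). Asp-GTC-1-13 had 53.7 to 58.8 and 72.2 to 91.1 (0.50 ± 0.14, adjusted p = 0.00623), and Asp-GTC-2-1 had 35.0 to 44.4 and 47.5 to 70.1 (0.47 ± 0.17, adjusted p = 0.0404). The median log2 difference was 0.16 for these loci and 0.10 for all tested loci, and over all loci it was 0.18 with TMM, 0.01 by edgeR or DESeq2 and 0.04 after thinning to equal totals. The Phe21 livers were deeper (11278 to 18575 reads) than their wild types (7895 to 9739). Asn-GTT-3-7, Asn-GTT-3-8 and Tyr-GTA-3-2 passed under each of these alternatives and in all 6 fits that left out 1 library. Without Phe21 replicate 9, the highest at His-GTG-2-1, none of His-GTG-2-1 (adjusted p = 0.121), Asp-GTC-1-13 (adjusted p = 0.121) and Asp-GTC-2-1 (adjusted p = 0.313) passed, and none of them passed by DESeq2. Asp-GTC-2-1 also failed to pass by edgeR, after thinning and in 3 of the 6 left-out fits.

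Among the liver libraries labelled Phe31, 4 of 23 loci passed and all 4 were lower, against 10.7% of all 178 (8.99% lower, 1.69% higher). The median log2 difference of these loci was -0.21, with -0.01 over all loci. His-GTG-2-2 had 103, 102 and 111 in wild-type livers a, b and c and 68.7, 85.2 and 80.7 in the libraries labelled Phe31 (-0.43 ± 0.11, adjusted p = 0.00621). Asn-GTT-3-7 had 99.7, 89.1 and 84.2 and then 76.6, 61.9 and 64.8 (-0.42 ± 0.13, adjusted p = 0.0197). Tyr-GTA-3-2 (-0.28 ± 0.09, adjusted p = 0.0233) and Tyr-GTA-4-1 (-0.25 ± 0.08, adjusted p = 0.0352) were lower too, the latter with overlap. The largest change in each direction did not pass, namely His-GTG-2-4 (-0.54 ± 0.31, adjusted p = 0.36) and Asp-GTC-1-1 (0.23, adjusted p = 0.793). These were the shallowest libraries, with 4719 to 5576 reads against 7943 to 9329, and with equal totals only Tyr-GTA-3-2 passed. The count was 1 to 4 (5 to 14 over all loci) when single libraries were left out. Of those 6 fits His-GTG-2-2 passed in 5, Asn-GTT-3-7 in 3, Tyr-GTA-3-2 in 2 and Tyr-GTA-4-1 in 1. By edgeR only His-GTG-2-2 passed (7 over all loci), and by DESeq2 0 of the 4 did (1 over all loci).

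Whether a knockout acted differently in the 2 tissues was tested by the interaction of tissue and genotype on log2(reads per 10000 + 1). For Phe11, 6 of 31 loci passed, 3 with a higher and 3 with a lower effect in liver, against 8.95% of all 257 (3.11% higher, 5.84% lower). The effect at Asn-GTT-3-8 was lower in liver than in brain, with a difference of effects of -0.55 ± 0.12 on the log2 scale (SE, adjusted p = 0.00309). In the libraries of this fit it was at 45.7 ± 1.53 in wild-type brain (n = 4) and 42.9 ± 1.08 in Phe11 brain (n = 4), and at 117 ± 4.15 (n = 3) and 74.0 ± 3.78 (n = 4) in liver. His-GTG-2-4 rose in brain, from 4.35 ± 0.98 to 9.96 ± 1.82, and was at 48.0 ± 4.27 and 48.6 ± 13.3 in liver (difference of effects -1.02 ± 0.30, adjusted p = 0.0285). This difference did not pass with a pseudocount of 10. Tyr-GTA-3-1 went from 194 ± 3.35 to 165 ± 2.96 in brain and from 148 ± 17 to 159 ± 9.63 in liver (0.32 ± 0.09, adjusted p = 0.0228).

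The other Phe11 interactions were His-GTG-2-1 (0.52 ± 0.14, adjusted p = 0.0249) and Asp-GTC-2-1 (0.59 ± 0.16, adjusted p = 0.0256). Asp-GTC-1-6, the sixth locus counted, is given without a test (difference of effects -1.37), since it had 3 to 8 reads in each Phe11 liver. All 6 kept their sign within each batch, where 0 passed in batch 1 and 0 in batch 2. Of the 16 fits that left out 1 library, Asn-GTT-3-8 passed in 16, Tyr-GTA-3-1 in 13, Asp-GTC-2-1 in 9, and His-GTG-2-1 and His-GTG-2-4 in 8 each. Without wild-type brain replicate 1 only Asn-GTT-3-8 passed (10 over all loci), and without wild-type brain replicate 16 there were 2 (12 over all loci). Without Phe11 brain replicate 5 there were 2 (11 over all loci), and without Phe11 brain replicate 14 there were 3 (13 over all loci).

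For Phe21, 3 of 29 loci passed the interaction, 1 with a higher and 2 with a lower effect in liver, against 7.76% of all 245 (2.45% higher, 5.31% lower). The fit held wild-type brains 1, 2 and 3, and its batch term takes up wild-type liver 24, which does not enter the difference. Asn-GTT-3-8 was at 45.6 ± 1.84 in wild-type (n = 3) and 50.1 ± 2.90 in Phe21 brain (n = 3), and at 103 and 122 in wild-type livers 1 and 3 and 75.7 ± 4.49 in Phe21 liver (n = 3). The difference of effects was -0.69 ± 0.15 (adjusted p = 0.00379), and it passed in all 12 fits that left out 1 library. Among these, the fit without wild-type liver 24 could not change the difference. Those without wild-type liver 1 or 3 rest on 1 wild-type liver. His-GTG-2-1 passed as well (0.62 ± 0.18, adjusted p = 0.0298), but failed to pass in 7 of those 12, by edgeR and with a pseudocount of 0.1. The last call was at His-GTG-2-8 (difference of effects -2.001), which is given without a test because it had too few reads to be tested in Phe21 liver alone and entered through the brain. It was at 61.7 ± 5.41 and 56.9 ± 6.61 in brain, at 15.1 and 8.87 in wild-type livers 1 and 3, and at 2.13 ± 1.42 in Phe21 livers, which held 1 to 4 reads each. Without wild-type liver replicate 3 the count was 7, of which 2 were shared with these 3.

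Consensus peak lists (1 for each comparison, pooled over its libraries) were searched on GRCm38.p6 for the queuosine pathway. Promoter windows of 300 bases were at hand for 9 genes. They are Qtrt1 and Qtrt2, the subunits of tRNA-guanine transglycosylase, 2210016F16Rik, the queuosine nucleotide glycosidase, Slc35f2, the queuine transporter, Gtdc1 and B3gntl1, which add mannose and galactose, Trdmt1, a methyltransferase of tRNA-Asp, and the aspartyl- and tyrosyl-tRNA synthetase genes Dars and Yars. Each of the 9 had a peak over a promoter window in all 6 lists, in brain and in liver. The share over all 32851 promoter windows was 44.8% to 51.6%. Gtdc1 has 3 windows in the reference, and the third had no peak in any list. Qtrt1 lies on chromosome 9 (window 21411587 to 21411886) and Qtrt2 on chromosome 16 (43889627 to 43889926). The lists are pooled, so they say nothing of how open these promoters are in a genotype.

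RefSeq lists 49 tRNA genes with the 4 anticodons on the same build, whose names could not be matched to the copies above. They include 16 Asp genes, against 14 Asp loci here, so this set differs from the 47 loci. Counted with 50 bases on each side, 25 to 27 of the 49 lay under a peak in the brain lists (51.0% to 55.1%) and 20 to 26 in the liver lists (40.8% to 53.1%). Over all 430 RefSeq tRNA genes the shares were 52.8% to 56.5% and 41.2% to 50.2%. Of the 10 Tyr genes 7 to 9 lay under a peak, and of the 13 Asn genes 4 to 5. Of the Tyr genes 6 lie on chromosome 13, and 6 of the His and 6 of the Asn genes lie on chromosome 3.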

How the data were processed

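The authors trimmed reads with Trim Galore 0.6.4, mapped them with Bowtie2 2.4.1 on GRCm38.p6 and removed duplicates with Picard 2.23.8. Low-quality and non-primary alignments were removed with SAMtools 1.10. Nucleosome-free reads were counted over each tRNA gene and its flanks with featureCounts 2.0.0. The deposited signal is this count divided by a DESeq2 size factor per library within each table. Whole reads were recovered by multiplying back (all 401 values of a library whole within 1e-06). The deposited peak lists give positions only, and were used for overlap (1 base or more). The authors' own fold changes and p-values were not used.

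Loci with a mean of at least 10 were tested with limma 3.58.1 in R 4.3.3 (two-sided, trend, pseudocount 1), adjusted by Benjamini-Hochberg over all loci of the table, with a threshold of 0.05. Batch was a term for Phe11, the tissues and the interactions. Alternatives were pseudocounts of 0.1 and 10, no filter, TMM, edgeR 4.0.16 and DESeq2 1.42.0 on recovered reads, single batches, a replicate block and left-out libraries. Thinning to equal totals, the single batches of the tissue and interaction tests and the comparison of wild-type livers were added after seeing the data. The fits were also run on simulated data, and the outcome is not given here. Libraries labelled Phe31 in liver and their wild types carry no number and are named a, b and c.

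The loci and gene lists were chosen with earlier results of these data known. Named are loci past the threshold, the highest of each family, the largest rise and fall of each knockout, and the 5 largest tissue differences each way. The study counts its ATAC-seq samples as mice, but nothing says that same-numbered brain and liver came from 1 mouse. The Nars and Hars promoters were not analysed here, nor were sequences of the loci.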

Additional observations from a re-analysis of the deposited data

Results flagged for a closer look

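Of 70 sets of 4 or 5 libraries checked (the named loci with a mean of at least 10 reads, in wild-type brain, Phe11 brain and Phe11 liver), 6 held a library far from the others, where chance gives about 5%. In Phe11 brain, replicate 14 was high at Asn-GTT-3-1 (37.2 reads per 10000, with the others at 30.65 to 31.04) and at Asp-GTC-1-8 (28.8, with 26.99 to 27.16). Replicate 6 was high at Tyr-GTA-1-2 (23.9, with 19.4 to 20.1), and replicate 5 at Tyr-GTA-1-5 (24.8, with 21.4 to 21.9). In Phe11 liver, replicate 6 was low at Asn-GTT-3-9 (18.5, with 23.1 to 23.5) and replicate 4 at His-GTG-2-4 (28.8, with 52.6 to 56.6).

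Of the loci called by the interaction of tissue and genotype, 7 had enough reads in each tissue to be read as a difference between liver and brain, and Asp-GTC-1-6 (Phe11) and His-GTG-2-8 (Phe21) had too few liver reads for that. For Phe11 the difference of log2 effects (liver minus brain) was -0.55 at Asn-GTT-3-8, -1.37 at Asp-GTC-1-6, 0.59 at Asp-GTC-2-1, 0.52 at His-GTG-2-1, -1.02 at His-GTG-2-4 and 0.32 at Tyr-GTA-3-1. For Phe21 it was -0.69 at Asn-GTT-3-8, 0.62 at His-GTG-2-1 and -2.001 at His-GTG-2-8, where the Phe21 livers held 1 to 4 reads each.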

How the results depend on the processing

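No locus past the threshold in a comparison changed direction under the alternatives run for it. Counts of these loci past the threshold moved more, and are given here out of the calls over all loci. In Phe11 brain (11 of 74) there were 7 of 63 with no filter on low values, 6 of 67 by edgeR and 4 of 34 by DESeq2. There were 1 of 6 in batch 1 alone, 6 of 59 in batch 2 alone and 7 of 53 after thinning to equal totals. With 1 library left out there were 6 to 10, with 56 to 72 over all loci. In Phe21 brain (0) TMM gave 2 of 9 and edgeR 2 of 2. Left-out libraries gave 0 to 2, with 0 to 9 over all loci. In Phe31 brain (0 of 2) each gave 0, with 1 to 3 over all loci. In Phe11 liver (5 of 25) DESeq2 gave 2 of 11, batch 1 alone 3 of 8, batch 2 alone 1 of 5 and thinning 1 of 10. Left-out libraries gave 3 to 7 there, with 14 to 32 over all loci. In Phe21 liver (6 of 27) left-out libraries gave 4 to 7, with 18 to 36 over all loci. For the libraries labelled Phe31 in liver (4 of 19) there were 2 of 13 with no filter, 1 of 7 by edgeR, 0 of 1 by DESeq2 and 1 of 6 after thinning. Leaving out 1 library gave 1 to 4 there, with 5 to 14 over all loci. Between the tissues (21 of 176) left-out libraries gave 20 to 26, with 161 to 176 over all loci. For the Phe11 interaction (6 of 23) batch 1 alone gave 0 of 5 and batch 2 alone 0 of 7. Left-out libraries gave 1 to 9 there, with 10 to 29 over all loci. For the Phe21 interaction (3 of 19) TMM gave 5 of 22, and left-out libraries 2 to 7, with 13 to 35 over all loci. The causes were not tested, although single batches, thinning and left-out libraries hold fewer reads or samples by construction.

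Same-numbered brain and liver libraries did not deviate together (correlations of -0.06 to 0.04 over 198 loci), so the numbers were not taken as pairs. With the number as a replicate block, 16 loci passed between the tissues (110 over all loci) and 4 in the Phe21 interaction (15 over all loci).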

Other observations

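As a share of all tRNA reads in brain, Tyr loci held 7.86% ± 0.18 in wild type (SD, n = 5), 7.43% ± 0.23 in Phe11 (n = 4), 7.58% ± 0.26 in Phe21 (n = 3) and 7.78% ± 0.15 in Phe31 (n = 3). Asn loci held 3.11% ± 0.07, 3.10% ± 0.13, 3.45% ± 0.06 and 3.17% ± 0.12 in the same order, and the Phe21 values (3.40% to 3.51%) all lay above those of wild type (3.03% to 3.18%). His loci held 4.67% ± 0.18, 4.79% ± 0.06, 4.56% ± 0.25 and 4.53% ± 0.13, and Asp loci 2.63% ± 0.09, 2.58% ± 0.16, 2.66% ± 0.03 and 2.59% ± 0.16. In wild-type liver, His and Asn shares did not overlap between batches. His loci held 5.56% to 5.69% in the 3 livers of batch 3 and 4.62% to 5.14% in the 4 of batches 1 and 2, and Asn loci 3.08% to 3.47% and 3.81% to 4.04%. The ranges overlapped for Asp (2.08% to 2.47% and 1.71% to 2.14%) and Tyr loci (8.98% to 9.72% and 8.60% to 9.32%).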
